A study of Mus musculus with 27 samples.

Results

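Islets of Langerhans from 6-week-old NOD.Batf3-/- mice were compared with islets from 6-week-old NOD mice. These are 6 of the 27 arrays in the series, 3 mice per genotype, and each array gave 1 value for each of 19938 genes. All mice were untreated females of the NOD/ShiLt background, housed in a specific pathogen-free barrier, and total RNA of the islets was hybridized to an Affymetrix whole-transcript array. The mutant group, called Batf3ko here, carries the Batf3 deletion as its only labelled difference from NOD. Set beside them are the 3 Rag1ko mice (NOD.Rag1-/-, without mature T and B cells) of the same age, and the 8-week-old mice, 6 of each of the 3 genotypes. The labels do not state which Batf3 exons are deleted, the strain in which the allele was made, or whether islets were pooled across mice.

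NOD mice develop autoimmune diabetes, in which T cells and myeloid cells enter the islets and beta cells are lost. BATF3 is a transcription factor of the AP-1 family, needed in mice for the dendritic cells that carry XCR1 and CLEC9A and that present captured antigen to CD8 T cells. Interferon-gamma, made by T cells and NK cells, acts on islet and immune cells, in part through IRF1. It switches on the chemokines CXCL9 and CXCL10, the guanylate-binding proteins (GBP) and the MHC molecules that display antigen. A separate set of genes, the immediate early genes (FOS, JUN, EGR and ATF3 among them), rises within minutes to hours of a stimulus, and tissue handling is one such stimulus.

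The levels below are log2 values from robust multi-array averaging (RMA), so a difference of 1 is a doubling. A gene was called when limma, fitted to all 27 arrays, gave a Benjamini-Hochberg adjusted p under 0.05 over the 19938 genes. Errors of differences are standard errors of that fit, which borrows its spread from all 6 groups. An exact permutation test of 3 against 3 mice cannot give a two-sided p below 0.10. The 6-week arrays correlated with one another between 0.9806 and 0.9958, and none was a copy of another. Array medians were 5.29 to 5.34 at 6 weeks and 4.92 to 5.05 at 8 weeks, so age and the distribution of the arrays cannot be told apart.

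Batf3 itself did not differ between the genotypes. NOD islets gave 4.62, 5.05 and 4.83 and Batf3ko islets gave 5.08, 4.86 and 4.80, a difference of 0.08 ± 0.17 (SE; limma adjusted p = 0.93). Where its probes lie relative to the deleted part is unknown here, so this value does not check the labels. Xcr1, the chemokine receptor of BATF3-dependent dendritic cells, was at 3.94, 3.97 and 3.76 in NOD and 4.17, 3.94 and 4.22 in Batf3ko. Clec9a, their receptor for dead-cell actin, was at 3.12, 3.13 and 3.15 in NOD and 3.52, 2.99 and 3.13 in Batf3ko. Both lay below the median of all array values (5.10) in every one of these mice, and neither was called (adjusted p = 0.79 and 0.94). The endocrine identity of the tissue was plain, with Ins2 (insulin) between 12.93 and 13.22 and Gcg (glucagon) between 13.30 and 13.53 across the 6 mice. Exocrine RNA was high too. The 28 measured acinar genes averaged 12.33, 12.46 and 12.39 in NOD, 12.43, 12.45 and 12.20 in Batf3ko and 12.53, 12.18 and 12.15 in Rag1ko. The 3 genotypes overlapped in acinar level at 6 weeks, and all 9 mice lay above every 8-week mouse, where the highest value was 9.67. Age and acinar level therefore cannot be told apart either.

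In all, 194 genes differed between Batf3ko and NOD islets at 6 weeks, 0.973% of those tested. Of these, 135 were lower in Batf3ko (0.677%) and 59 were higher (0.296%). The falls were the larger changes: their median was -1.10 and 78 exceeded 1 log2 unit, whereas the rises had a median of 0.56 and 3 exceeded 1 unit. The 3 and 3 arrays did not overlap for 192 of the 194 (0.963% of genes). Without regard to the test, 16% of all genes had groups that did not overlap, 8.49% higher and 7.55% lower, and 11.7% had an unadjusted p under 0.05. The median difference over all genes was 0. The number of calls moved with single arrays, from 63 without Batf3ko replicate 3 to 308 without Batf3ko replicate 1. It was 76 without Batf3ko replicate 2, 99 without NOD replicate 2, 147 without NOD replicate 3 and 176 without NOD replicate 1. With only the 6 arrays in the fit, 39 genes were called, 30 of them among the 194.

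Genes of the interferon-gamma response gave 3 of the 4 largest single falls (Cxcl9, Iigp1 and Cxcl10). Of 14 measured, 7 were called lower (Cxcl9, Iigp1, Cxcl10, Gbp4, Gbp3, Gbp7 and Irf1) and none higher, 12 had NOD and Batf3ko arrays that did not overlap with Batf3ko lower, and the median difference was -1.21. The mean level of the 14 genes was 5.88, 5.88 and 6.45 in the NOD mice and 4.56, 4.58 and 4.58 in the Batf3ko mice, beside 4.75, 4.64 and 4.68 in the Rag1ko mice. All 3 NOD mice therefore stood more than 1 unit above every mouse of the other genotypes. Leaving out 1 array left 4 to 6 of the 7 calls in number, with 4 without NOD replicate 2, NOD replicate 3, Batf3ko replicate 2 or Batf3ko replicate 3. In bulk tissue, fewer cells that express a gene and less RNA per cell cannot be told apart.

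Cxcl9 encodes a chemokine that draws CXCR3-bearing T cells. It was at 8.70, 8.46 and 9.13 in NOD and at 4.37, 4.62 and 3.68 in Batf3ko, a log2 difference of -4.54 ± 0.47 (limma adjusted p = 2.9e-06). The Rag1ko mice, at 4.85, 4.86 and 3.88, overlapped with the Batf3ko mice. Cxcl10, a second CXCR3 ligand, was at 8.16, 7.39 and 8.25 in NOD and 4.96, 5.24 and 4.78 in Batf3ko (-2.94 ± 0.40, adjusted p = 7.2e-05). Iigp1, an interferon-inducible GTPase that attacks intracellular pathogens, was at 6.37, 6.48 and 7.58 against 3.57, 3.92 and 3.74 (-3.07 ± 0.43, adjusted p = 0.00015). Most of these Batf3ko values lie below the median of all array values (5.10), and whether they stand above background was not assessed, so no fold is given for them. These 3 genes were called in each of the fits without 1 array and in the fit of the 6 arrays alone.

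Irf1, the transcription factor that carries the interferon signal onward, had values of 7.69, 7.71 and 8.01 in NOD and 6.51, 6.74 and 6.74 in Batf3ko (difference -1.14 ± 0.16, limma adjusted p = 0.00018). Its call also held without each array in turn. Among the GBP genes, whose proteins coat and disrupt microbes and their vacuoles, Gbp4 was at 5.98, 6.45 and 7.30 in NOD and between 4.46 and 4.56 in Batf3ko, a difference of -2.06 ± 0.46 (adjusted p = 0.023). Without NOD replicate 3 its difference was -1.70 (adjusted p = 0.13), and it was not called without NOD replicate 2 (0.072), Batf3ko replicate 2 (0.091) or Batf3ko replicate 3 (0.10). Gbp3 (-1.63, adjusted p = 0.048), Gbp7 (-1.16, 0.037), Gbp8 (-1.68, 0.022) and Gbp11 (-1.22, 0.028) were also called lower. Gbp genes are near copies of one another, and the extent to which their probes share transcripts was not tested.

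The promoters of Cxcl10 and Irf1 hold the DNA elements through which interferon signals are read, and are shown for that reason. Each is the 250 bases before the RefSeq start site in GRCm38.p6, printed along the gene's strand. Capitals in the Cxcl10 promoter (chr5:92348890-92349139, minus strand) mark the interferon-stimulated response element (GAAA, any 2 bases, GAAA) at -213 from the start site, and the AP-1 element TGANTCA at -74. Capitals in the Irf1 promoter (chr11:53769764-53770013, plus strand) mark TTCNNNGAA, the gamma-activated site, at -90. RefSeq gives 2 start windows for Irf1 and the first is shown.
Cxcl10: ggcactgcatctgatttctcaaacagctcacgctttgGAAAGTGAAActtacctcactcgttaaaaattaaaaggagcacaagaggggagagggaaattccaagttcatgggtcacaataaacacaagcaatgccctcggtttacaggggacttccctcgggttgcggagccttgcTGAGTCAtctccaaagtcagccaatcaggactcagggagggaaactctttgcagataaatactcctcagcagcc
Irf1: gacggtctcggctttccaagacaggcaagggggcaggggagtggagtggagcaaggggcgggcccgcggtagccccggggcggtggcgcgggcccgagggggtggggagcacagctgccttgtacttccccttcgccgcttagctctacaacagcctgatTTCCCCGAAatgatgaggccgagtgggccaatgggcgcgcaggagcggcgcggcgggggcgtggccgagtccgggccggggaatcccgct

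Searched on both strands of the full RefSeq windows (250 bases before to 50 after the start), the interferon-stimulated response element was in 6 of the 10 interferon-gamma response genes that had a window (60%) and in 3.32% of the 15614 windows of tested genes. It was in 5 of the 99 windows of genes called lower (5.05%). The AP-1 element, the kind of site BATF proteins bind with JUN partners, was in 7 of those 99 windows (7.07%) against 6.98% of all windows, and in 4 of 44 windows of genes called higher (9.09%). The gamma-activated site was in 8.08% of the windows of the lower genes and 7.83% of all windows, and the glucocorticoid response element was in none of the lower and 0.403% of all. In the 10 windows of interferon-gamma response genes, the AP-1 element and the gamma-activated site were each in 3 (30.0%). In the 13 windows of immediate early genes they were in 0 and 1. Over the lower genes as a whole, neither the AP-1 element nor the gamma-activated site was held by a share far from the background. A match is a string of letters, not a measured site of binding.

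Antigen presentation followed the interferon genes. Of 10 measured genes of MHC class II presentation, 4 were called lower (Cd74, H2-Ab1, H2-Eb1 and H2-Aa), all 10 had differences below 0, and the median was -0.70. Cd74, the invariant chain that escorts class II molecules, was at 8.74, 9.26 and 9.07 in NOD and 6.90, 7.44 and 7.24 in Batf3ko (-1.83 ± 0.33, limma adjusted p = 0.0026). The class II chains H2-Ab1 (-1.45, adjusted p = 0.045), H2-Eb1 (-1.41, 0.025) and H2-Aa (-1.39, 0.020) fell by similar amounts. Cd74 was called without each array in turn, and the number of class II calls then ranged from 1 to 3, with 1 without NOD replicate 2 or 3 or without any 1 of the Batf3ko arrays. Of 13 measured genes of class I presentation, 2 were called lower and 12 were below 0, with a median of -0.28. They were B2m, the light chain of every class I molecule, at 10.62, 11.09 and 11.33 in NOD and 9.36, 9.54 and 9.97 in Batf3ko (-1.40 ± 0.23, adjusted p = 0.0012; 0.095 with the 6 arrays alone), and H2-Q4 (-1.10, 0.023). H2-Q4 was not called without NOD replicate 2 (0.065), NOD replicate 3 (0.13), Batf3ko replicate 2 (0.13) or Batf3ko replicate 3 (0.052). Psmb9, a catalytic subunit of the immunoproteasome, gave -1.02 ± 0.29 without a call (adjusted p = 0.11).

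**Figure D1:**
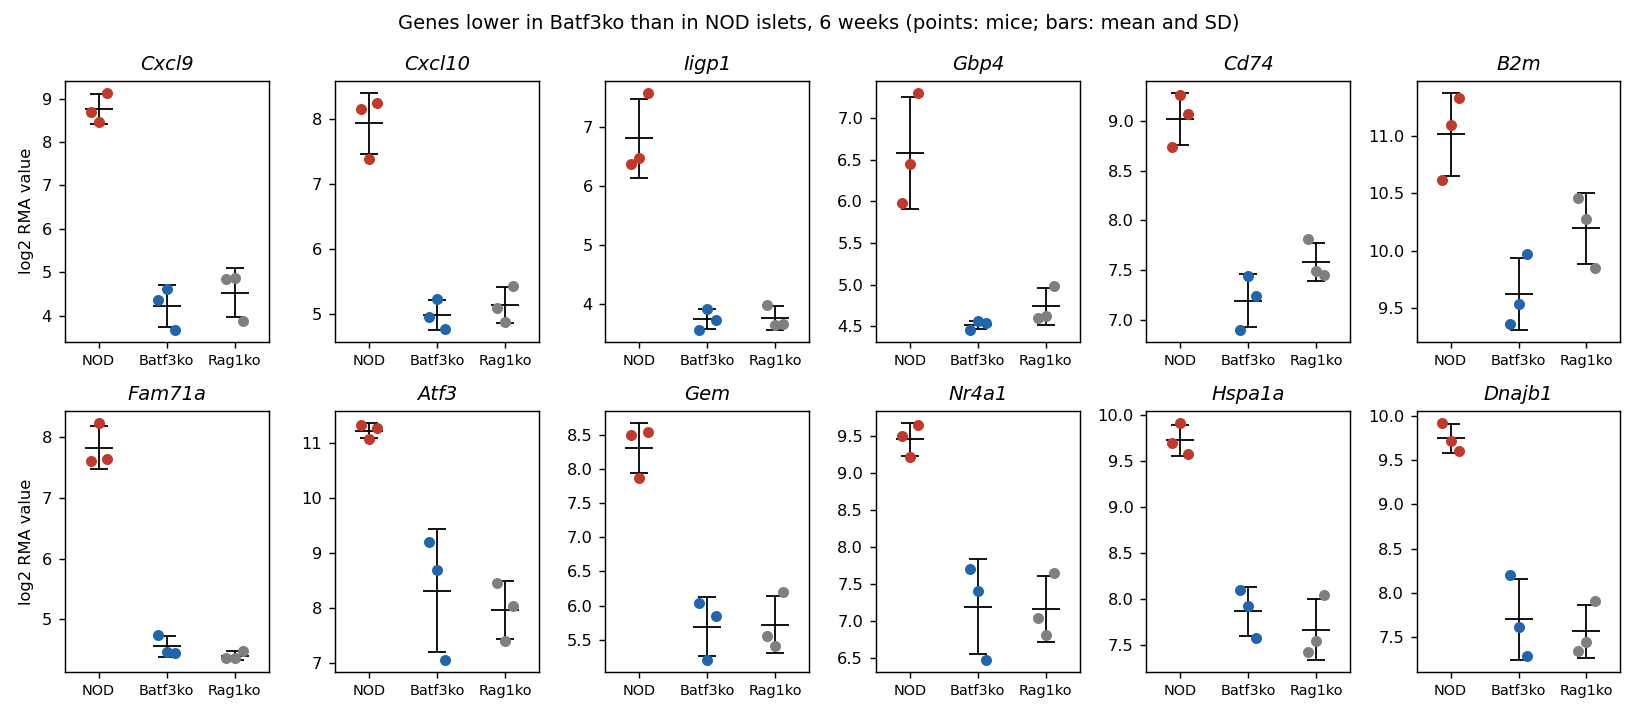
Log2 RMA value (vertical axis) of 12 genes called lower in Batf3ko than in NOD islets at 6 weeks, for NOD, Batf3ko and Rag1ko mice. Each point is 1 of 3 mice, the bars give the mean and SD, and each panel has its own axis. The 3 NOD mice lie above all Batf3ko and Rag1ko mice in every panel, most narrowly for B2m, where the highest Rag1ko value is 10.46 and the lowest NOD value is 10.62.

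Of 24 measured chemokine genes, 5 were called lower: Cxcl9, Cxcl10, Cxcl2, Ccl3 and Ccl4. Of the 24, 11 had lower Batf3ko arrays with no overlap, and the median was -0.37. Cxcl2, which attracts neutrophils, was at 5.74, 5.42 and 6.65 in NOD and 3.70, 3.13 and 3.52 in Batf3ko, again below that median (-2.49 ± 0.36, limma adjusted p = 0.00018). Ccl3 and Ccl4 attract macrophages and T cells. Ccl3 was at 7.16, 7.06 and 7.03 in NOD and 5.51, 5.61 and 5.01 in Batf3ko (-1.70 ± 0.34, adjusted p = 0.0084), a call lost without Batf3ko replicate 3 (adjusted p = 0.092). Ccl4 gave -0.95 (adjusted p = 0.022), a call lost without any one of 4 arrays (0.062 without NOD replicate 2, 0.089 without NOD replicate 3, 0.18 without Batf3ko replicate 2 and 0.073 without Batf3ko replicate 3).

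Among 24 cytokine genes, Tnf was the only one called (-1.05, limma adjusted p = 0.047). Its NOD values of 4.42, 5.57 and 5.59 overlapped with its Batf3ko values of 3.95, 4.08 and 4.42, and the call was lost without any array other than NOD replicate 1 (adjusted p = 0.084 to 0.32). Ifng itself, the gene for interferon-gamma, was at 4.27, 4.78 and 4.61 in NOD and 4.27, 4.12 and 3.68 in Batf3ko, which overlapped, with no call (-0.53 ± 0.25, adjusted p = 0.40). None of 23 type I interferon response genes was called in limma's fit of 27 arrays, although 9 had arrays that did not overlap and the median was -0.26. Zbp1, a sensor of unusual nucleic acids, gave -1.04 in that list (adjusted p = 0.24).

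Listed markers of T cells (0 of 20), B cells (0 of 19) and macrophages (0 of 22) gave no call with all 27 arrays. Nor did those of NK cells (0 of 9) or the BATF3-dependent dendritic cells (0 of 18). The direction was down for most: 18 of the 20 T cell genes and 18 of the 22 macrophage genes were below 0, with medians of -0.30 and -0.44. The mean of the T cell genes was 4.36, 4.45 and 4.48 in NOD, 4.19, 4.15 and 4.17 in Batf3ko and 4.19, 4.17 and 4.15 in Rag1ko, a narrow gap without overlap. Cd3e, part of the T cell receptor complex, was at 5.34, 5.49 and 5.59 in NOD and 4.57, 4.93 and 4.43 in Batf3ko (-0.83 ± 0.35, limma adjusted p = 0.34). Ctla4, an inhibitory receptor of T cells that is in none of these lists, was called lower without overlap (-1.13, limma adjusted p = 0.044). The macrophage genes averaged 5.92, 6.03 and 6.02 in NOD and 5.47, 5.67 and 5.64 in Batf3ko, again without overlap. B cell genes averaged 4.06, 4.05 and 3.98 in NOD against 4.02, 3.90 and 3.89, which overlapped.

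The spread used for these genes includes the 8-week NOD mice, which ranged widely (Cd3e from 5.31 to 7.55, Lyz2, a lysozyme of macrophages, from 7.56 to 10.66). In limma's fit of the 6 arrays alone, 1 macrophage gene, 1 type I interferon gene and 2 genes of cytotoxic cells were called. These included Ccl5, a chemokine made by activated T cells, which was at 6.74, 7.28 and 7.10 in NOD and 5.20, 5.13 and 5.27 in Batf3ko (-1.84; adjusted p = 0.011 with 6 arrays and 0.14 with 27). They also included Nkg7, of cytotoxic granules (-1.30; 0.044 and 0.34), Aif1, of macrophages (-0.81; 0.044 and 0.31), and Zbp1 (-1.04; 0.021 and 0.24). Other fits added calls too. Of the named genes not called with 27 arrays, 15 were called with the 9 arrays of that age. When the replicate number was added to that fit, 10 were. Of the 69 named genes called with 27 arrays, 23 and 29 lost their call in these fits. The lowest limma adjusted p over all alternatives was 0.023 for Cd3e, 0.013 for Cd86, 0.016 for Ctss, 0.027 for C1qb and 0.040 for Tap1. The calls on leukocyte genes therefore depended on which arrays set the spread. Lists share members: Cxcl9 and Cxcl10 stand among both the chemokines and the interferon-gamma genes.

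**Figure D2:**
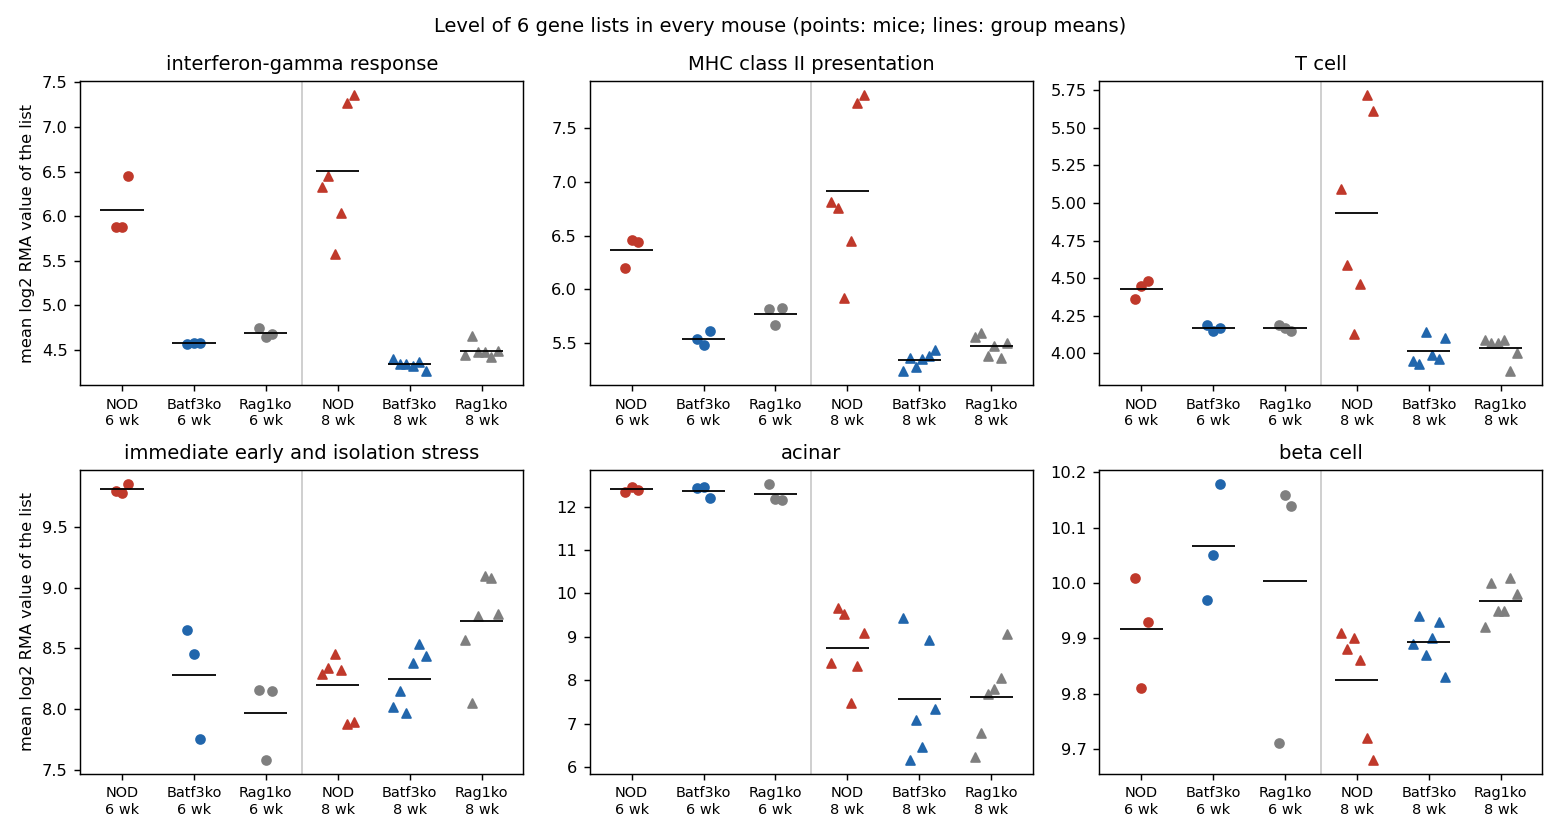
Mean log2 RMA value of 6 gene lists (vertical axis, own scale in each panel) in all 27 mice, by genotype and age, with circles for 6 weeks, triangles for 8 weeks and lines for group means. At 6 weeks the interferon-gamma level is 5.88 to 6.45 in NOD and 4.56 to 4.58 in Batf3ko, and the immediate early level is 9.78 to 9.86 in NOD and 7.75 to 8.65 in Batf3ko.

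The second large block of falls was the list of immediate early and isolation stress genes, called immediate early here. It also holds the inducible heat shock gene Hspa1a. Of 15 measured, 14 were called lower in Batf3ko and all 15 had arrays that did not overlap, with a median of -1.38. The one without a call was Btg2 (-0.75 ± 0.20, limma adjusted p = 0.066). Their mean level was 9.80, 9.78 and 9.86 in the NOD mice, 8.65, 8.45 and 7.75 in the Batf3ko mice and 8.16, 7.58 and 8.15 in the Rag1ko mice. The NOD mice were high and nearly equal, the Batf3ko mice were spread over almost a unit, and Batf3ko and Rag1ko overlapped. At 8 weeks NOD ranged from 7.88 to 8.45 and Batf3ko from 7.97 to 8.54, and 0 of the 15 was called. The count at 6 weeks was 5 without Batf3ko replicate 3, the mouse with the lowest level. In the fit of the 6 arrays alone it was 1, the heat shock gene Hspa1a, and with the 9 arrays of that age it was 10.

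Atf3, a stress-induced repressor of the AP-1 family, was at 11.31, 11.06 and 11.27 in NOD and 9.19, 8.68 and 7.05 in Batf3ko, a 7.51-fold fall (-2.91 ± 0.48, limma adjusted p = 0.0012). The orphan nuclear receptor gene Nr4a1 was at 9.49, 9.21 and 9.65 against 7.70, 7.41 and 6.48 (-2.25 ± 0.41, adjusted p = 0.0029; -1.90 and 0.056 without Batf3ko replicate 3). Fosb, an AP-1 subunit, was at 11.61, 11.44 and 11.58 against 10.22, 9.65 and 8.79 (-1.99 ± 0.40, 0.0079; -1.61 and 0.12 without Batf3ko replicate 3). In each of these genes Batf3ko replicate 3 was the lowest array. Jun (-1.38), Fos (-1.36), Egr1 (-1.29) and Junb (-1.17) fell by similar amounts, and Dusp1 (-1.52) and Zfp36 (-1.52), which end MAP kinase signals and degrade cytokine messages, fell with them. Genes outside the list with a like pattern were Npas4, an activity-induced transcription factor (-2.67, adjusted p = 0.0021), Gem, a small GTPase that restrains calcium channels (-2.62, 8.6e-06), and Klf6 (-2.07, 1.0e-05).

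Since JUN proteins are the partners of BATF factors, the list of the BATF family and its partners was counted as well. Of 14 measured, 5 were called lower, and all 5 (Atf3, Fosb, Jun, Fos and Junb) are also immediate early genes or their close relatives.

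Some heat shock genes fell as well. They were gathered into a list after their values had been seen, and 8 of 29 measured heat shock and co-chaperone genes were called lower, with a median of -0.25. Hspa1a, the inducible HSP70, is counted in the immediate early list too. It was at 9.69, 9.91 and 9.57 in NOD and 8.10, 7.92 and 7.57 in Batf3ko (-1.87 ± 0.17, limma adjusted p = 2.6e-07). Its near-identical neighbor Hspa1b has no value of its own here. Dnajb1, its co-chaperone, was at 9.92, 9.72 and 9.60 against 8.20, 7.61 and 7.29 (-2.05 ± 0.24, 1.0e-05). Both were called without each array in turn. Hsph1 (-1.34), Hspb1 (-1.10) and Bag3 (-0.71) were further members called lower.

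Genes that NF-kB switches on, and that feed back on it, were likewise grouped after their values were seen. Of 23 measured, 7 were called lower, with a median of -0.37. Nfkbiz, an inhibitor-like cofactor of NF-kB, was at 9.02, 9.23 and 9.16 in NOD and 8.08, 7.43 and 7.06 in Batf3ko (-1.62 ± 0.19, limma adjusted p = 1.0e-05). Nfkbia, the inhibitor that holds NF-kB in the cytoplasm, gave -0.98 (0.024), Nfkbie gave -1.36 (0.0019) and Ptgs2, an inducible prostaglandin synthase, gave -1.29 (0.022). Cxcl2 belongs to the group too, and its promoter (chr5:90903649-90903898, GRCm38.p6, plus strand) is shown because it holds the NF-kB element (GGG, any 2 bases, TTTCC) at both -97 and -78, in capitals. That motif was searched after the values were seen and was in 7 of the 99 windows of genes called lower (7.07%) and 1.52% of all windows.
Cxcl2: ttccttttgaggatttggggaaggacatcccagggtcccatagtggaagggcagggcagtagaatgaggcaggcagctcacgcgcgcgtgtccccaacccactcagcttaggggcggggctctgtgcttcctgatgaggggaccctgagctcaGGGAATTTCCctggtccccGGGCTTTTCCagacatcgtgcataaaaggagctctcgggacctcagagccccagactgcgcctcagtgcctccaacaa

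Other motifs were searched after the values were seen. The cyclic AMP response element TGACGTCA was in 7 of the 99 windows of lower genes (7.07%) and 2.49% of all windows, and the heat shock element was in 2 (2.02%) and 0.416%.

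Fam71a had the second-largest fall of all genes. It was at 7.61, 8.23 and 7.64 in NOD, 4.75, 4.47 and 4.45 in Batf3ko and 4.37, 4.36 and 4.48 in Rag1ko (-3.27 ± 0.27, limma adjusted p = 5.5e-08). Both knockouts lay below the median of all array values. In the RefSeq gene order it is the tested gene next to Batf3 on chromosome 1, and Atf3 follows it. Of the 135 tested genes around Batf3 (100 before it and the 35 that remain after it), these 2 were the ones called, both lower, which is 1.48% against 0.973% of all genes. The Rag1ko mice had Fam71a as low as the Batf3ko mice did. At 8 weeks Fam71a was at 4.33 to 5.50 in NOD and 3.98 to 4.88 in Batf3ko (difference -0.24, limma adjusted p = 0.47). Whether the deletion beside Fam71a and Atf3 has a part in their falls was not tested. The place of Fam71a beside Atf3 was one of 11 pairs of neighboring tested genes that were both called lower, a count made after the values were seen. Of the 134 lower genes placed in the order, 20 lay beside another (14.9%), against 1.32% of all 19919 placed genes that lay beside a gene called lower. Other such neighbors were Ccl3 and Ccl4, H2-Ab1, H2-Aa and H2-Eb1, Gbp7 and Gbp3, Gbp4 and Gbp11, and the microRNA genes Mir23a, Mir27a and Mir24-2. These microRNAs have a shared precursor, so their pairs may not be separate falls. No neighboring pair was called higher.

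Mir23a was at 7.27, 7.74 and 6.69 in NOD and 5.75, 5.21 and 5.01 in Batf3ko (-1.91 ± 0.28, limma adjusted p = 0.0002), and Mir27a (-1.24, 0.049) and Mir24-2 (-1.11, 0.019) fell beside it. The 3 microRNAs have a shared precursor, so their falls may not be separate. Where these probe sets lie is unknown here, so precursor and mature microRNA cannot be told apart. The RefSeq mature sequences of miR-23a are shown with their seeds (bases 2 to 8) in capitals to identify the product of the locus (GRCm38.p6, chromosome 8, plus strand, 84208527 to 84208548 for the 5p arm and 84208563 to 84208583 for the 3p arm).
mmu-miR-23a-5p: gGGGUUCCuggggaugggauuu
mmu-miR-23a-3p: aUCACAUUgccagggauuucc

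Because the 6-week NOD mice stood high for immediate early genes, the fit was repeated with the mean level of that list as a covariate, an alternative chosen after seeing the data. It gave 8 calls, all lower, 7 of them among the 194. Cxcl9 (-6.02, limma adjusted p = 0.00015), Iigp1 (-4.06, 0.015), Cxcl10 (-3.57, 0.034), Cd74 (-2.69, 0.043), B2m (-2.19, 0.0064) and Fam71a (-2.28, 0.015) were called in it. Irf1 (-1.39, 0.052) and Hspa1a (-1.20, 0.057) were not, and Atf3 was at -0.01. The covariate is made from genes under test and separates the NOD mice from the rest at 6 weeks, so it also takes up differences between the genotypes. Whether the handling of the NOD islets differed was not tested.

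Other groups held a few calls each. Of 14 glucocorticoid-responsive genes, 5 were called lower (Zbtb16, Per1, Errfi1, Nfkbia and Dusp1), with a median of -0.63. The count ran from 1 without Batf3ko replicate 3 to 9 without Batf3ko replicate 1, and was 2 without NOD replicate 3 or Batf3ko replicate 2. With the 6 arrays alone, 0 of the glucocorticoid-responsive genes and 0 of the clock genes were called by limma. The adjusted p of the calls they held was then 0.072 to 0.34. Of 16 circadian clock genes, 4 were called lower: Nfil3 (-1.56, limma adjusted p = 0.00083), Per1 (-1.26, 0.0014), Bhlhe40 (-0.86, 0.046) and Per2 (-0.63, 0.048). The clock genes averaged 7.50, 7.40 and 7.53 in NOD, 7.27, 7.12 and 7.0 in Batf3ko and 6.51, 6.59 and 6.74 in Rag1ko, with no overlap between any of the 3 genotypes. The clock count was 2 without NOD replicate 1 or 3 or Batf3ko replicate 2 or 3. The labels give no time of day for the dissections, and its part was not tested. Nfil3, a transcription factor also needed to form those dendritic cells, was the one lower gene for which Batf3ko also fell below Rag1ko. It was at 7.51, 7.94 and 7.77 in NOD, 5.47, 6.54 and 6.52 in Batf3ko and 7.68, 7.58 and 7.80 in Rag1ko.

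Of 20 genes of endoplasmic reticulum stress, Atf3 and Ddit3 were called lower. Ddit3, which encodes the CHOP factor, was at 9.14, 9.32 and 9.54 in NOD and 8.29, 7.97 and 8.25 in Batf3ko (-1.16 ± 0.14, limma adjusted p = 1.0e-05). The list as a whole had a median of -0.01. Krt8, a keratin of duct and acinar cells (-0.75, 0.031), and Hmgcs1, of cholesterol synthesis (-0.79, 0.0053), were the single calls in their lists of 8 and 15 genes. Krt8 was not called without NOD replicate 2 (0.22), NOD replicate 3 (0.067), Batf3ko replicate 2 (0.16) or Batf3ko replicate 3 (0.24), nor Hmgcs1 without Batf3ko replicate 2 (0.063).

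Endocrine genes gave no call. The 20 measured beta cell genes averaged 10.01, 9.81 and 9.93 in NOD and 9.97, 10.05 and 10.18 in Batf3ko, which overlapped, and their median difference was 0.16. Ins2 was at 12.93, 13.04 and 12.98 against 13.09, 13.13 and 13.22 (0.16 ± 0.08, limma adjusted p = 0.44), and Pdx1, the beta cell transcription factor, gave 0.41 ± 0.14 (0.20). Gcg gave 0.09, Sst (somatostatin) 0.00 and Ppy (pancreatic polypeptide) -0.67, the last with Batf3ko values of 10.47, 12.36 and 12.91 that spanned the NOD range of 12.39 to 12.85. None of the 28 acinar, 12 endothelial, 16 fibroblast, 18 cell cycle, 19 oxidative phosphorylation or 14 hypoxia genes was called, with medians between -0.00 and 0.20. Of the 19 oxidative phosphorylation genes, 9 had Batf3ko arrays above all NOD arrays, 0 had them below, and 2 had differences below 0. Among all genes, 8.49% lay above in this way. The mean level of the 19 genes was 9.28 to 9.35 in NOD and 9.41 to 9.45 in Batf3ko, a narrow gap without overlap.

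The Reg genes, secreted proteins of injured acinar and islet tissue, varied among the Batf3ko mice. Reg3a was at 9.91, 9.87 and 9.84 in NOD, 7.23, 9.73 and 5.47 in Batf3ko and 12.43, 12.24 and 11.94 in Rag1ko. The Batf3ko values lay below the others but spread over more than 4 units, and the difference from NOD was not called (-2.40 ± 0.90, limma adjusted p = 0.27), whereas that from Rag1ko was (-4.73, 0.012). Reg3g was lower than in Rag1ko by 4.86 (8.1e-07) and did not differ from NOD beyond its spread (-0.25 ± 0.45, 0.91).

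The 59 rises were smaller. None belonged to any of the 504 genes in the 35 lists, whereas 41 of the 135 falls did. The lists cover few of the 19938 tested genes, so few of 59 genes drawn without regard to them would be members. They were also chosen with earlier results of these data known. The absence of rises from the lists therefore says little about what the rises share. Genes with known islet roles stood among the rises. Ret, a receptor tyrosine kinase of neurons and endocrine cells, was at 7.25, 6.99 and 7.08 in NOD and 7.71, 8.03 and 8.27 in Batf3ko (0.90 ± 0.12, limma adjusted p = 4.2e-05). Gpr119, a lipid receptor that promotes insulin and incretin release, was at 6.70, 6.91 and 6.00 against 7.18, 7.52 and 7.92, a 2.01-fold rise (1.0 ± 0.20, 0.0092). Ffar2, a receptor for short-chain fatty acids, was at 6.29, 6.57 and 6.02 against 6.73, 7.11 and 7.31 (0.76 ± 0.17, 0.021). Syt11, a synaptotagmin of vesicle traffic, was at 6.06, 5.67 and 5.50 against 6.57, 6.81 and 7.41 (1.19 ± 0.20, 0.0012). In none of the 4 did NOD and Batf3ko overlap. Gpr119 and Ffar2 were not called with the 6 arrays alone or with the 9 arrays of that age.

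Zfp617 had the greatest rise, 2.41-fold (1.27 ± 0.29, limma adjusted p = 0.029), from 5.54, 4.57 and 5.41 to 5.98, 6.54 and 6.81, and the zinc finger genes Zfp637 (0.88, 0.00076) and Zfp935 (0.84, 0.0043) rose too. Usp46, a deubiquitinase, was at 5.10, 4.56 and 4.95 against 5.84, 5.74 and 6.11 (1.03 ± 0.19, 0.0033). Gstm4, a glutathione transferase, was at 5.51, 5.40 and 5.34 against 6.18, 6.59 and 6.43 (0.98 ± 0.18, 0.0043). Lancl1, a glutathione-binding protein, was at 7.01, 7.22 and 7.24 against 7.46, 8.27 and 8.28 (0.85 ± 0.16, 0.0047). Among the 15 highest were also Gtpbp8 (0.86), Commd6 (0.74), Triqk (0.74), Hus1, of the DNA damage checkpoint (0.74), and Mlst8, a subunit of both mTOR complexes (0.68). Of the 15, Syt11, Ret and Zfp637 were called without each array in turn, but not with the 6 arrays alone (limma adjusted p = 0.16, 0.11 and 0.075). The other 12 lost their call without at least 1: 10 without Batf3ko replicate 2, 9 without Batf3ko replicate 3, 5 without NOD replicate 2, 4 without NOD replicate 3, 2 without NOD replicate 1 and 1 without Batf3ko replicate 1. Of the 15 lowest genes 11 held in each of these fits, and Fosb, Gbp4, Nr4a1 and Rgs1 did not, the last without Batf3ko replicate 2 (-1.62, adjusted p = 0.091).

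**Figure D3:**
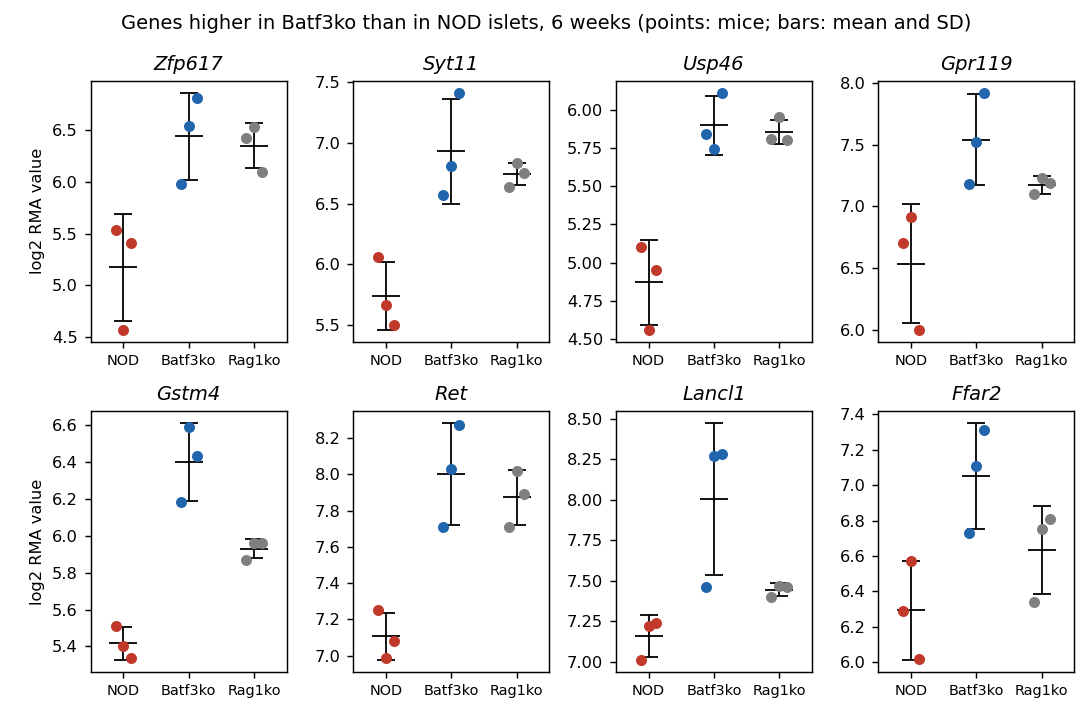
Log2 RMA value (vertical axis, own scale in each panel) of 8 genes called higher in Batf3ko than in NOD islets at 6 weeks, with the Rag1ko mice of that age. Each point is 1 of 3 mice and the bars give the mean and SD. The Batf3ko points lie above the NOD points in every panel, and none of the 8 genes was called between Batf3ko and Rag1ko.

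The Rag1ko mice place both groups. Since the comparisons share arrays, their values are set side by side only. NOD differed from Rag1ko at 6 weeks in 772 genes (3.87%; 287 higher, 1.44%, and 485 lower, 2.43%), and Batf3ko differed from Rag1ko in 70 (0.351%; 35 higher and 35 lower, 0.176% each). Of the 135 genes lower in Batf3ko than in NOD, 111 were called higher in NOD than in Rag1ko. For 1 of them, Nfil3, Batf3ko was called below Rag1ko, and for 0 was it called above. Of the 59 higher genes, 38 were called lower in NOD than in Rag1ko, and Ociad2 was the 1 gene called higher in Batf3ko than in Rag1ko (0.60, limma adjusted p = 0.032). For Cxcl9, NOD minus Rag1ko was 4.23 (2.2e-06) and Batf3ko minus Rag1ko was -0.30 (1.0). For Atf3 they were 3.25 (0.00012) and 0.35 (1.0). All 15 immediate early genes and 7 of the 14 interferon-gamma genes were called higher in NOD than in Rag1ko, and none of either list was called between Batf3ko and Rag1ko. The clock genes differed from Rag1ko in both groups. Of the 16, 11 were called higher and 3 lower in NOD, and 7 higher and 2 lower in Batf3ko.

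At 8 weeks the same 2 genotypes, in other mice, differed in 1527 genes (7.66%; 645 higher, 3.24%, and 882 lower, 4.42%). The mean acinar level was then 8.75 in NOD and 7.57 in Batf3ko, and with that level as a covariate 922 genes were called. Of the 194 genes called at 6 weeks, 27 were called in the same direction at 8 weeks and 7 in the opposite one. The 24 that were lower at both ages included Cxcl9, Iigp1, Cxcl10, Irf1, 5 Gbp genes (Gbp3, Gbp4, Gbp7, Gbp8 and Gbp11), Cd74, the class II chains H2-Ab1, H2-Eb1 and H2-Aa, B2m, H2-Q4, Ccl3, Rgs1, which dampens chemokine receptor signals, and Ctla4, an inhibitory receptor of T cells. At 8 weeks Cxcl9 was at 7.77 to 10.67 in NOD and 3.13 to 3.86 in Batf3ko (-5.90, limma adjusted p = 7.7e-12). The 3 that were higher at both ages were Lancl1 (0.85 and 0.70), Jkamp (0.68 and 0.30) and Glb1l2 (0.50 and 0.28).

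The change between the ages was tested directly, as the difference at 8 weeks minus that at 6 weeks, and 377 genes were called (1.89%; 209 higher, 1.05%, and 168 lower, 0.843%). With the acinar level as a covariate 195 were called. Age, acinar level and the distribution of the arrays cannot be told apart in this change. Of the 194 genes, 111 were among them, 80 of the falls and 31 of the rises. The change holds the 6-week difference with its sign reversed. Genes picked for their 6-week difference are therefore favored for a call towards a smaller one. The count of 111 is not independent of that choice. None of the 24 genes lower at both ages was called for the change, and picking them for falls at both ages makes such a call less likely. The interferon-gamma genes had a median of -1.21 at 6 weeks and -2.16 at 8 weeks, and none of the 14 was called for the change. For Cxcl9 the change was -1.36 ± 0.58 (limma adjusted p = 0.20). In contrast, 13 of the 15 immediate early genes were called for the change, all towards a smaller fall, and their medians were -1.38 at 6 weeks and 0.05 at 8 weeks. Atf3 changed by 3.16 (0.0059), Fam71a by 3.03 (2.2e-05) and Hspa1a by 1.65 (0.00014). Among the rises, Syt11 changed by -1.58 (0.00071) and Ret by -0.78 (0.0059).

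The listed T cell, macrophage and BATF3-dependent dendritic cell genes had 0 calls at 6 weeks. At 8 weeks 14 of 20, 20 of 22 and 9 of 18 of them were called lower. For the change itself 0, 3 and 0 of them were called. The 7 genes called in opposite directions were Trp53inp1, Zbtb16, Thbs1, Cpeb2, Ihh and Dedd2, lower at 6 weeks and higher at 8 weeks, and Kpna2, the reverse. Zbtb16, a transcription factor that rises with glucocorticoids, was at 7.09, 7.67 and 7.51 in NOD and 6.56, 6.46 and 5.68 in Batf3ko at 6 weeks. At 8 weeks it was at 3.88 to 4.41 in NOD and 4.99 to 6.39 in Batf3ko (1.28, limma adjusted p = 0.00015).

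**Figure D4:**
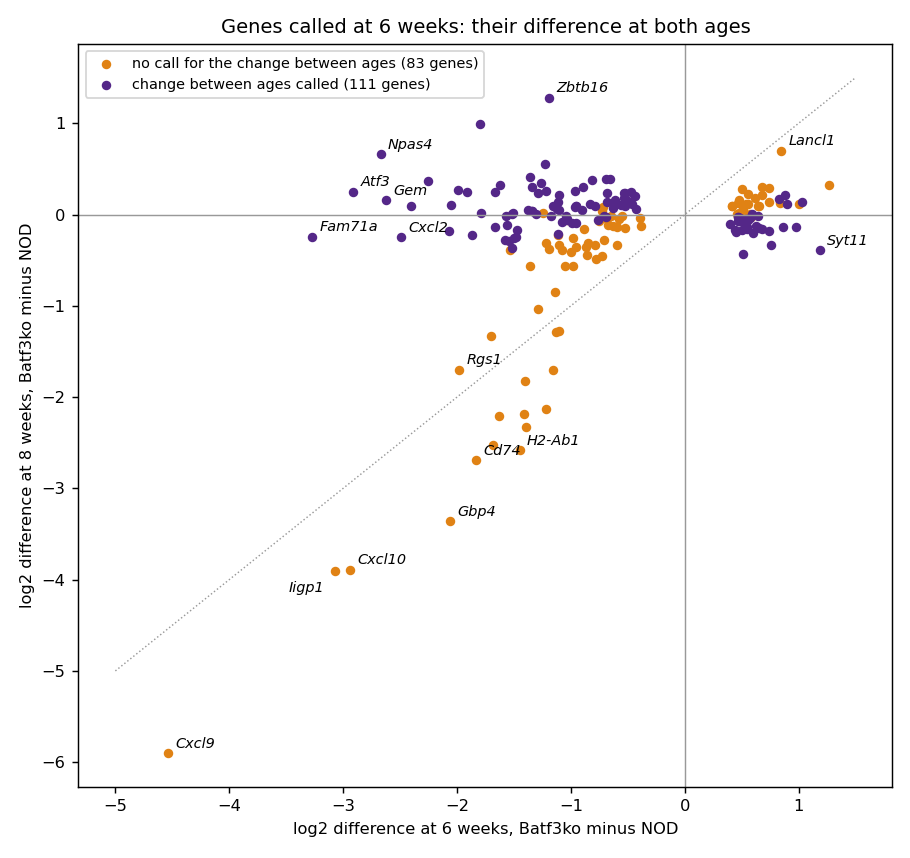
Log2 difference, Batf3ko minus NOD, at 6 weeks (horizontal axis) and 8 weeks (vertical axis) of the 194 genes called at 6 weeks. Each point is a gene, colored by whether the change between ages was called (111 genes) or not (83), and the dotted line marks equal differences. Interferon-gamma and MHC genes other than Irf1 lie below that line, with larger falls at 8 weeks, though none was called for the change. Fam71a, Atf3, Npas4, Gem and Cxcl2 lie near or above 0 at 8 weeks.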

How the data were processed

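Total RNA of islets from 27 female mice was hybridized to Affymetrix Mouse Gene arrays. The authors deposited log2 values made by RMA in Arraystar, per the labels' series text. The submitters' processing notes also name Affymetrix Expression Console and the build mm9, with no role or version. The table held 30177 probe sets with values from 0.70 to 13.85. Of these, 21789 named 1 symbol in the platform annotation, 1621 several and 6767 none, and only the first were tested. For the 999 genes with several probe sets the one with the highest mean was used, leaving 19938 genes.

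Groups came from the genotype and age in the labels. limma 3.58.1 (R 4.3.3) was fitted to the deposited log2 values of all 27 arrays with 6 group means and no replicate block, with 21 residual and 5.52 prior degrees of freedom, and p-values were adjusted by Benjamini-Hochberg over all genes at 0.05. The code was tested on simulated data. The series' text calls the mice biological replicates. The number of arrays limits the precision, and no read depth applies.

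Named genes were the 15 highest and 15 lowest differences among called genes whose arrays did not overlap (predicted genes, RIKEN clones, small RNAs and receptor segments left out, 17 calls in all), the 10 smallest p-values for the change between ages, called members and up to 5 leading members of each list, set markers, and called neighbors of Batf3. Genes named outside it (Btg2, the Gbp, heat shock and NF-kB genes given by value alone, Mir23a and its neighbors, Ociad2, Jkamp, Glb1l2 and those listed as called at both ages) were chosen after their values were seen. The members, the 35 lists and the tests were chosen with earlier results of these data known. Of the listed genes, those without a single-symbol probe set, among them Ins1, Lck, H2-K1 and H2-D1, were not analysed here. Promoter and microRNA sequences are from RefSeq (GRCm38.p6), which held a window for 15614 tested genes, 143 of them called. Alternatives were the arrays in the fit, the dim filter, the probe set rule, normalization, a replicate block, list levels as covariates, and leaving out each array. Same-numbered NOD and Batf3ko mice deviated with correlations of -0.10, -0.01 and 0.03, so the numbers were not taken to pair the mice.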

Additional observations from a re-analysis of the deposited data

Results flagged for a closer look

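The Batf3ko minus NOD difference changed between 6 and 8 weeks, by limma's test of the change itself at an adjusted p under 0.05, for 43 of the genes that were followed through every alternative. It was also called for Thbs1, Cpeb2, Ihh, Dedd2, Hsph1, Hspb1 and Mir24-2, which were not. Among the 43, in all of those with a positive change the 6-week difference was below 0. The change holds that 6-week difference with its sign reversed, so their signs are not independent. The log2 changes above 2 were Npas4 3.33, Atf3 3.16, Fam71a 3.03, Gem 2.78, Nr4a1 2.63, Polg2 2.49, Zbtb16 2.47, Fosb 2.26, Cxcl2 2.24, Dnajb1 2.16 and Mir23a 2.16. Changes between 1.5 and 2 were Nfkbiz 1.94, Ier2 1.91, Klf6 1.89, Btbd19 1.81, Trp53inp1 1.79, Fos 1.77, Cry2 1.74, Chac1 1.66, Hspa1a 1.65, Rabepk 1.64, Per1 1.61, Egr1 1.54 and Dusp1 1.53. Smaller positive changes were Errfi1 1.48, Nfil3 1.45, Jun 1.42, Klf4 1.33, Ddit3 1.27, Junb 1.16 and Zfp36 1.15. Negative changes, each from a 6-week difference above 0, were Syt11 -1.58, Scd1 -1.19, Gstm4 -1.12, Ffar2 -1.09, Gtpbp8 -1.0, Kpna2 -0.95, Commd6 -0.92, Usp46 -0.89, Pecam1 -0.87, Mlst8 -0.85, Ret -0.78 and Zfp637 -0.67. For Scd1 and Pecam1 the 6-week difference itself was not called. Age, acinar level and the distribution of the arrays cannot be told apart in these values.

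One Rag1ko mouse at 8 weeks had an interferon-gamma response level of 4.65, set apart from the other 5 mice of its group, which lay between 4.42 and 4.49. The limit used for such gaps is one that about 1 in 20 groups would pass by chance, and several lists were screened. Outside the genes tested, 53 of the 8388 probe sets that name several symbols or none differed between Batf3ko and NOD at 6 weeks, 8 higher and 45 lower. That is a smaller share than the 0.973% of tested genes that were called.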

How the results depend on the processing

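Under limma with only the 6 arrays, 39 genes were called at 6 weeks (35 of them lower), with the 9 arrays of that age 127, and with the immediate early level as covariate, chosen after seeing the data, 8. With that covariate 10 genes turned upward: Npas4 0.05, Nr4a1 0.24, Fosb 0.52, Ier2 0.35, Fos 0.51, Jun 0.07, Junb 0.12, Egr1 0.11, Ier3 0.11 and Dusp1 0.18. The same covariate left 1 call for the change between ages and 8 for NOD minus Rag1ko, and the acinar level as covariate left 195 for the change and 922 at 8 weeks. With 9 arrays NOD minus Rag1ko had 476 calls and Batf3ko minus Rag1ko 8, and testing every probe set gave the latter 117. The replicate block, in a fit whose numbers do not pair the mice, gave 82 calls for Batf3ko minus NOD, 279 for NOD minus Rag1ko and 3 for Batf3ko minus Rag1ko. Leaving out 1 array gave 63 to 308 calls at 6 weeks, 75 to 427 for the change, 377 to 777 for NOD minus Rag1ko, 33 to 75 for Batf3ko minus Rag1ko and 1445 to 1559 at 8 weeks. Quantile normalization gave 194 calls at 6 weeks, 37 higher (19.1% against 30.4%), and moved the higher share to 72.2% of the changes and 49.9% of NOD minus Rag1ko. Centring the arrays moved it to 55.9% of the 8-week calls and 69.2% of the changes. Of 69 named genes called at 6 weeks, 18 were called with the 6 arrays, 46 with the 9 arrays, 40 with the replicate block and 6 with the immediate early covariate. Among named genes not called in the main fit, 4 gained a call with the 6 arrays, 15 with the 9 arrays and 10 with the block. Without 1 array 34 (Batf3ko replicate 3) to 62 (Batf3ko replicate 1) were, with 38 without Batf3ko replicate 2. With the block, B2m (adjusted p = 0.065), Syt11 (0.096) and Ret (0.066) were not called. The other settings called 62 (every probe set), 65 (acinar covariate), 67 (centring, and trended robust variance), 68 (quantile), 69 (mean of probe sets) and all 68 that passed the dim filter. The causes of these shifts were not tested. The number of arrays and signal near background limit the precision.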
